A study of Mus musculus with 8 samples.

Results

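The genes Fos, Fosb, Fosl1 and Fosl2 of the Fos family, Jun, Junb and Jund of the Jun family, and Atf3, Egr1 and Ier2 were followed in single cell RNA sequencing data of femoral bone stromal cells. These 10 genes were chosen by name as AP-1 subunits and immediate early genes, and all 10 were among the 28956 genes of the count tables. The cells came from C57BL/6 wild-type female mice at 12 weeks of age. In the Fracture group the left leg had been broken by bending at 10 weeks of age under ketamine and xylazine, the femur had been held with an intramedullary nail, carprofen had been given against pain, and bones were taken at day 14. The Control group was unfractured, and drugs are described for the fractured animals only. Bones of both groups were digested with collagenase, and blood cells were depleted through lineage markers, CD45 and CD117. Each group held 2 cell preparations of 2 droplet libraries each, 8 libraries in all. The study calls the replicates independent. Whether the preparations came from separate animals, and from how many, is not given in the sources used here. The p-values of Fracture against Control thus measure only the spread between 2 preparations per group, which may be technical. The question was how far Fracture differed from Control in each cell class once the difference between the Control preparations was set beside it.

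AP-1 is a pair of basic leucine zipper proteins, most often a Fos family protein bound to a Jun family protein, that sits on DNA and switches genes on or off. Fos proteins need a partner from the Jun family, while Jun proteins can also pair among themselves, and ATF3 is a related zipper protein that can pair with Jun proteins and often lowers transcription. EGR1 is a zinc finger transcription factor and IER2 a small nuclear protein, and their genes, like most of the AP-1 genes, are immediate early genes, which are transcribed within minutes of a stimulus without new protein being made first. Growth factors, cytokines, mechanical load, wounding and the enzymatic digestion of tissue are all known stimuli. In bone, Fos is required for osteoclasts to form and drives osteosarcoma when it is overexpressed, and forced expression of Fosl1 or of the short form of Fosb makes mice with dense bone.

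The promoters of Fos, Jun and Atf3 are shown because these genes stand for the Fos, Jun and ATF proteins among the members and each holds a site through which zipper proteins are known to act on immediate early genes. The sequences are the 150 bases before the RefSeq start on GRCm38.p6, on the strand of the gene and ending at that start. For Atf3 the GENCODE annotation reaches further upstream, to position 191218039, so the window is that of the RefSeq start and lies inside the GENCODE gene. Capitals mark the cyclic AMP response motif TGACGT or its reverse ACGTCA, the variant AP-1 motif TGACATCA and the TATA box TATAAA. The Fos window is chr12:85473740-85473889 on the plus strand, the Jun window chr4:95052223-95052372 on the minus strand and the Atf3 window chr1:191183334-191183483 on the minus strand.
Fos: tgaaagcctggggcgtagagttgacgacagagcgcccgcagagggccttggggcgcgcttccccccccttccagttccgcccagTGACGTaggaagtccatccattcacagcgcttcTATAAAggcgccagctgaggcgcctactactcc
Jun: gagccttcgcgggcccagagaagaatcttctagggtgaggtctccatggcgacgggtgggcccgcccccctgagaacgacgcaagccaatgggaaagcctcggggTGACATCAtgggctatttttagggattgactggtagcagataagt
Atf3: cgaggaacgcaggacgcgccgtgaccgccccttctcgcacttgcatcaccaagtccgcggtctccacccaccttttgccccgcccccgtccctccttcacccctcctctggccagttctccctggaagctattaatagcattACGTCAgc
The first base of TGACGT lay 66 bases before the Fos start and 8 bases before the Atf3 start, TGACATCA lay 45 bases before the Jun start, and TATAAA lay 33 bases before the Fos start. RefSeq windows of 250 bases were used for 7 of the 10 genes, and those of Egr1, Fosl1 and Ier2 were not analysed here. Searched on both strands, TGACGT was found in 2 of the 7, against 6.47% of 32851 promoters of that length, TGACATCA in 1 of 7 against 2.93%, and TATAAA in 1 of 7 against 12.4%. The classical AP-1 motif TGANTCA was found in none of the 7, against 6.75% of all promoters, and none of the marked motifs overlap. A match is a description of the letters only.

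The libraries held 56543151 to 89126291 UMIs, each UMI standing for 1 captured transcript. After the filters of the study 45328 of 48903 barcodes remained, 84.5% to 86.2% of those in the Control libraries and 99.3% to 99.8% in the Fracture libraries. The median cell held 7170 to 8685 UMIs in Control and 10640 to 12708 in Fracture. The Control tables reached down to barcodes of 1 UMI and the smallest Fracture barcode held 1929, so the tables of the groups do not start at the same depth, which cannot be told apart from the groups. Libraries of a preparation shared at most 23 barcodes and other libraries at most 20. Over 208 library pairs of a preparation in the 6 stromal classes in which a member reached 20 CPM in both libraries, the higher library exceeded the lower by a median ratio of 1.085. The ratio passed 2-fold in 3 pairs, and at most it was 3.24, for Atf3 in smooth muscle-like cells of Control 2. Pairs with a library under 20 CPM are not counted, such as Atf3 in fibroblast-like cells of Control 2, at 50.6 and 15.4.

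Cells fell into 10 clusters, which were made without the members and named from marker genes. Chondrocyte-like cells (2 clusters), osteoblast-like, bone mesenchymal stromal cell (BMSC)-like, fibroblast-like, endothelial-like and smooth muscle-like cells are the 6 stromal classes compared. Basophil or mast cell-like, erythroid-like and megakaryocyte-like cells are blood cells left by the depletion. Each stromal class held 131 to 7115 cells per preparation, the fewest in the fibroblast-like cells of Control 2, and the summed level of the 8 markers that named it was checked. It held in the chondrocyte-like cells, at 90117 and 80746 CPM in Control and 96953 and 96667 in Fracture. It was far lower in Fracture in the BMSC-like cells, at 30208 and 31421 CPM in Control against 2552 and 3141, and lower in the osteoblast-like cells, at 108359 and 126193 against 46497 and 59616. It was also lower in Fracture in fibroblast-like cells, at 19975 and 22824 CPM against 8028 and 8567, in smooth muscle-like cells, at 29077 and 31114 against 16932 and 17925, and in endothelial-like cells, at 8837 and 8797 against 6520 and 6403. The BMSC-like cells of the Fracture group thus carry the name of a class whose defining genes they hold at a low level, and values of the members in them are to be read with that.

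The levels of the members in unfractured bone differed between the 6 stromal classes, to which the orders given here are limited. The levels set between classes are plain CPM, the UMIs of a gene scaled to the same total in each class and preparation, as means over the 2 preparations of a group. Fos in Control was highest in chondrocyte-like cells, at 1913 CPM, and lowest in BMSC-like cells, at 420.7, a ratio of 4.547. Fosb ran from 441.5 to 85.28 CPM between these classes, and Ier2 from 717.7 to 85.0. Chondrocyte-like cells also led for Jun, at 1213 CPM, Junb, at 1179, and Egr1, at 781.6. Jun and Junb were lowest in osteoblast-like cells, at 162.8 and 140.6 CPM. Among the stromal classes these early genes thus stood highest in the cartilage cells. BMSC-like or osteoblast-like cells stood lowest for all of them but Egr1, which was lowest in endothelial-like cells at 172.5 CPM. Blood cells left in the suspensions stood above the chondrocyte-like cells for Jun, Ier2 and Junb, and below them for Fos, Fosb and Egr1. Basophil or mast cell-like cells held Jun at 1372 CPM and Ier2 at 1016, and megakaryocyte-like cells held Junb at 1383.

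The remaining 4 members had other orders among the stromal classes. Fosl1 was rare everywhere in Control, at 9.761 CPM in fibroblast-like cells at the top and 0.2177 in osteoblast-like cells at the bottom, the latter from 6 and 5 UMIs in the preparations. Fosl2 was led by smooth muscle-like cells at 100.4 CPM, Jund by fibroblast-like cells at 970.8 and Atf3 by smooth muscle-like cells at 150.6. Atf3 was nearly absent from BMSC-like cells, at 3.504 CPM, which is 42.98 times below the top class. The orders were not sharp in Control. For Fos, Fosb and Atf3, 4 of the 5 neighbouring pairs of classes in the order overlapped over the preparations, for Jund and Ier2 it was 3, for Fosl1, Junb and Egr1 it was 2, and for Fosl2 and Jun 1.

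For 9 of the 10 members the stromal classes, again without the blood cells, lay closer together in Fracture. The exception was Fosl1, whose ratio of the highest to the lowest class went from 44.84 to 87.58. The ratio of the highest to the lowest class was 2.479 for Fos, 1.955 for Jun and 3.504 for Junb, against 4.547, 7.451 and 8.385 in Control. Chondrocyte-like cells were still highest for Fos, at 2190 CPM, Fosb, at 537.0, Jun, at 996.3, Junb, at 1355, Egr1, at 784.5, and Ier2, at 564.9. The lowest class for these 6 genes was now the fibroblast-like class, at 883.5 CPM for Fos. Atf3 was now highest in osteoblast-like cells, at 236.0 CPM. No neighbouring classes overlapped for Fosb, Fosl1, Fosl2, Atf3 and Egr1, while for Jund 4 of 5 pairs did.

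**Figure D1:**
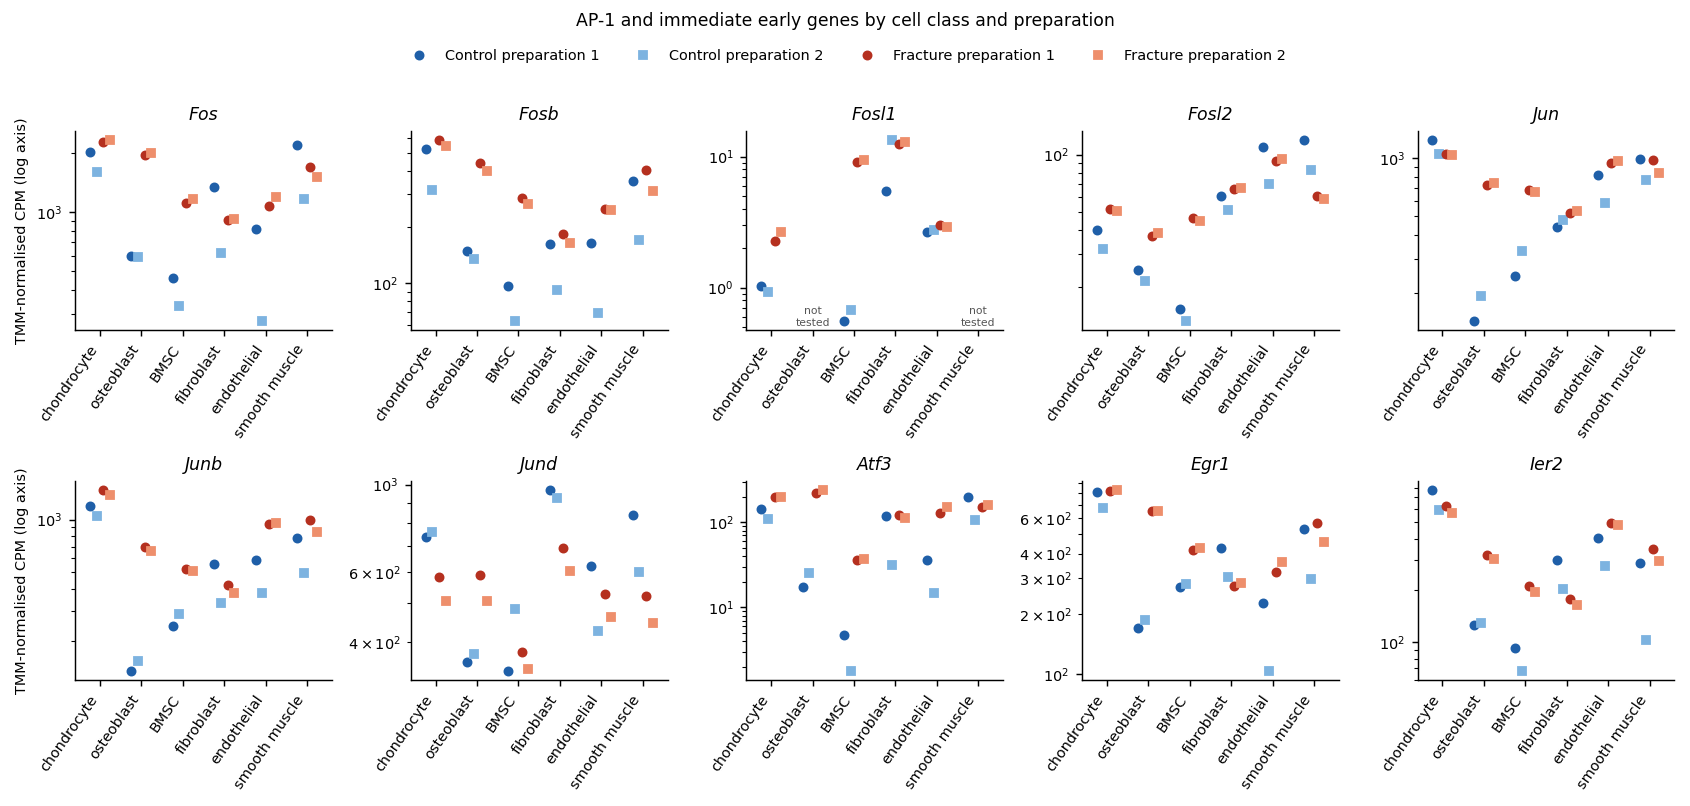
Levels of the 10 members in 6 stromal cell classes, 1 panel per gene. The y axis is normalised CPM on a log axis, each point is 1 preparation, circles and squares are preparations 1 and 2, blue is Control and red Fracture. The Fracture points of a gene and class lie close together, the Control points often do not, and the red points stand above the blue ones in osteoblast-like and BMSC-like cells for most genes.

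From here levels are CPM scaled within a class by the trimmed mean of M-values (TMM), and fold changes are on the log2 scale. A member was called when edgeR's quasi-likelihood test of Fracture against Control, fitted on all genes of a class, gave an adjusted p under 0.05. The difference between the preparations of a group was called past 2-fold, without a test, since it sets 1 preparation against 1. Both comparisons rest on the same Control preparations. Of 60 possible pairs of a class and a member, 58 were tested, since Fosl1 was too rare in osteoblast-like and smooth muscle-like cells.

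Over the 58 pairs, 24 members rose in Fracture and 2 fell, where 31.4% of all 83152 gene and class pairs were called. The Control preparations differed past 2-fold in 10 of the 58 pairs, against 8.13% of all pairs. Control 1 was the higher in 9 of these 10, and in 43 of the 58 pairs whatever the size. The Fracture preparations differed past 2-fold in 0 of the 58 pairs, against 1.65% of all pairs, and at most by 0.37 on the log2 scale. The median size of the difference was 0.48 between the Control preparations and 0.08 between the Fracture preparations. Over all genes the medians by class ran from 0.173 to 0.319 in Control and from 0.084 to 0.219 in Fracture. The Control group was thus the one in which the members were unsteady, and mostly in one direction. Genes in general also differed more between the Control than between the Fracture preparations in each class, so this is not particular to the members.

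In 26 of the 58 pairs the Control difference was larger than the Fracture difference. The groups did not overlap in 44 pairs, 38 of them higher and 6 lower in Fracture, where 72.2% of all pairs did not overlap. Fracture stood more than 2-fold above Control 1 in 18 pairs, above Control 2 in 23 and above both in 16. In 12 pairs Fracture was higher than one Control preparation and lower than the other, so that the direction depended on which was taken. These 12 fell in the fibroblast-like and smooth muscle-like cells (4 each), the endothelial-like cells (2) and the chondrocyte-like and BMSC-like cells (1 each). The counts of 26, 18, 23, 16 and 12 pairs have no share over all genes beside them, so they do not set the members apart from other genes.

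**Figure D2:**
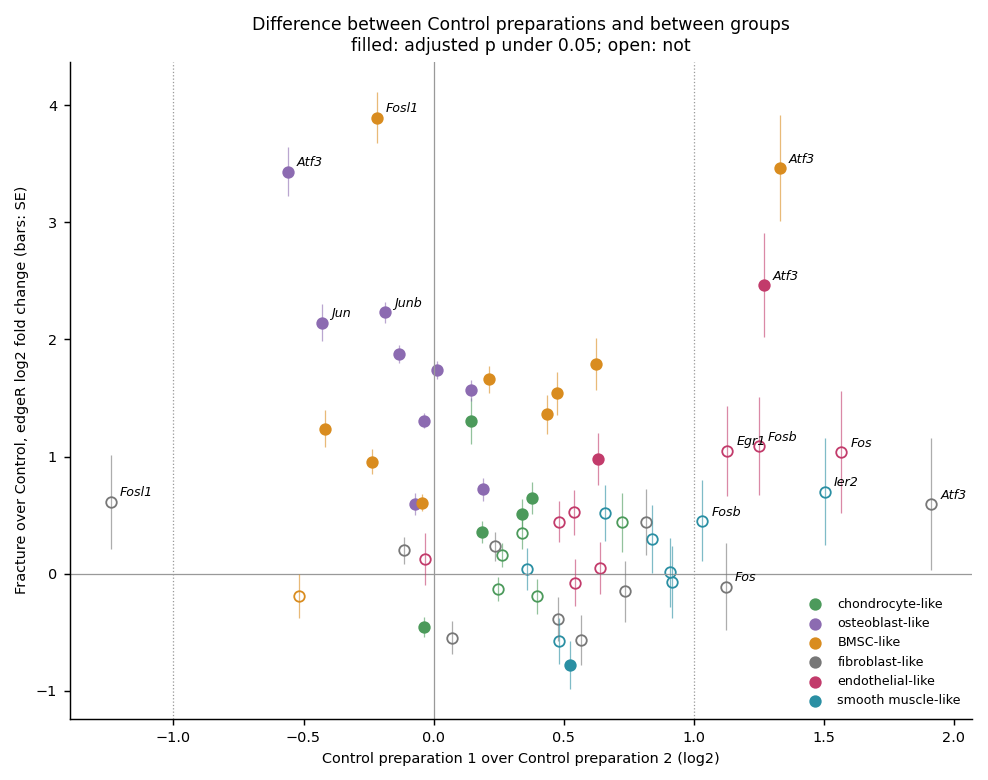
Difference between the Control preparations (x axis, log2 of Control 1 over Control 2) against the fold change of Fracture over Control (y axis, log2, bars are SE), for 58 pairs of a class and a member. Filled points were called at an adjusted p under 0.05, dotted lines mark 2-fold, and named points lie past 2-fold on the x axis or past 2 on the y axis. The osteoblast-like points lie between -0.56 and 0.19 on the x axis and all above 0 on the y axis, and the smooth muscle-like points lie between -0.78 and 0.70 on the y axis and to the right of 0.

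Osteoblast-like cells, the matrix-forming cells of bone, showed the members rising, with the Control preparations 0.14 apart at the median and at most 0.56, for Atf3. All 9 tested members rose, against 16.6% of all genes called in this class, and 0 of 9 passed 2-fold between the Control preparations, against 5.6% of genes. Fos stood at 597 and 591 CPM in Control 1 and 2 and at 1965 and 1998 in Fracture, a fold change of 1.74 (log2, SE 0.075, adjusted p 0.00251 by edgeR), with a Control difference of 0.01. Fosb rose from 149.6 and 135 CPM to 442 and 402, by 1.57, and Fosl2 from 24.6 and 21.6 to 37.4 and 38.6, by 0.72. For these 3 genes both Fracture preparations lay above both Controls. Fosl1 was at 6 and 5 UMIs in Control and at 1 and 5 in Fracture, too few to test.

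Among the Jun family in osteoblast-like cells, Junb, a partner of Fos that can also restrain Jun, went from 135 and 154 CPM to 698 and 658. Its fold change was 2.23 (log2, SE 0.093, adjusted p 0.00251 by edgeR). Jun went from 143 and 192 CPM to 730 and 749, by 2.14, and Jund, the family member that most cells hold at a steady level, from 355 and 373 to 592 and 507, by 0.60. Jun and Junb were slightly lower in Control 1 than in Control 2, and Jund rose least.

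Atf3, which is induced by many kinds of stress, had the largest fold change among the members here. The Control levels were 17.2 and 25.5 CPM and the Fracture levels 222 and 239, a fold change of 3.43 (log2, SE 0.211, adjusted p 0.00428 by edgeR). Egr1 rose from 171 and 187 CPM to 655 and 656, by 1.88, and Ier2 from 126 and 129 to 323 and 308, by 1.30. Set against each Control alone, Fracture was more than 2-fold higher in 7 of the 9 members, all but Fosl2 and Jund. The chondrocyte markers, of which all 8 were counted in this class, summed to 9571 and 8799 CPM in Control and 8082 and 8031 in Fracture, and the erythroid markers to 24.6 and 111 against 270.0 and 400.1. The part of other cells' RNA and of the lower osteoblast markers in these values was not tested. The median cell was shallower in Fracture, at 11173 and 12100 UMIs against 18417 and 20846. Without either Fracture preparation 0 of 14334 and 0 of 14173 genes were called in this class, the 9 members among them, with Fos at 1.75 and 1.72 and Atf3 at 3.48 and 3.38. All 9 calls were kept without either Control preparation, where 4980 of 14208 and 5509 of 14361 genes were called. Thinned to 1000 UMIs per cell, 8 of the 9 were kept, where 262 of 8623 genes were called, and Fosl2 was at 0.84 (adjusted p 0.203 by edgeR).

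BMSC-like cells are named for the Cxcl12 and Lepr expressing stroma of the marrow, but in Fracture their BMSC markers, at 2552 and 3141 CPM, lay below the osteoblast markers of the same cells, at 10162 and 11226, and the chondrocyte markers, at 3835 and 3881. In the cells under this name 9 of 10 members rose, Fosl1 among them, where 52.1% of all genes were called. Fos went from 459 and 330 CPM in Control 1 and 2 to 1119 and 1173 in Fracture, by 1.54 (log2, SE 0.181, adjusted p 0.0038 by edgeR), and Fosb from 96.9 and 62.9 to 285 and 266, by 1.79. Fosl1 was at 0.556 and 0.673 CPM in Control, from 9 UMIs in each preparation, and at 9.09 and 9.35 in Fracture, from 85 and 98 UMIs. Its fitted fold change was 3.89 (SE 0.221), but it passed the filter on low counts through the Fracture preparations and was not tested in thinned cells or without integration. Fosl2 went from 15.5 and 13.3 CPM to 46.3 and 44.8, by 1.66. Fos, Fosb and Fosl2 therefore stood above both Controls by more than 2-fold.

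Jun in BMSC-like cells went from 246 and 329 CPM to 684 and 672, by 1.24, and Junb from 244 and 287 to 521 and 508, by 0.96. Jund was at 337 and 483 CPM in Control and 376 and 341 in Fracture, with a fold change of -0.19 (SE 0.189, adjusted p 0.428 by edgeR). Jund was the exception, since both Fracture values lay between those of the Control preparations. Atf3 went from 4.76 and 1.79 CPM to 36.1 and 37.1, by 3.46, Egr1 from 273 and 281 to 416 and 427, by 0.61, and Ier2 from 91.7 and 67.7 to 214 and 196, by 1.36. Atf3 was also the 1 member of this class past 2-fold between the Controls, at 1.33, against 5.31% of genes. All 9 calls held with any 1 preparation left out, where 2809 of 15507 genes were called without Fracture 1, 3331 of 15494 without Fracture 2, 9463 of 15172 without Control 1 and 9034 of 15131 without Control 2. In cells thinned to 1000 UMIs 7 of 9 tested members rose, Egr1 losing its call at an adjusted p of 0.0635 by edgeR and Fosl1 not being tested, where 3691 of 10441 genes were called. With cells clustered without integration 8 of 9 tested members rose, again without Fosl1, where 5972 of 14020 genes were called, and the class then held 556 and 599 Fracture cells in place of 1021 and 1102, with 2697 and 1787 Control cells in place of 2590 and 1721. Fibroblast markers summed to 87.6 and 40.1 CPM in Control and 849.5 and 913.8 in Fracture, and erythroid markers to 176.5 and 1528 against 1300.2 and 3113. Chondrocyte markers summed to 865 and 428 CPM in Control and 3835 and 3881 in Fracture, which is 0.96% and 0.53%, then 3.96% and 4.02%, of their level in chondrocyte-like cells. Fos stood at 22.8% and 20.9%, then 48.4% and 49.5%, of its chondrocyte level. The part of other cells' RNA and of the loss of BMSC markers in these values was not tested.

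The makeup of the BMSC-like class differed between groups, and the members were read in its diaphyseal-like (dpMSC) and metaphyseal-like (mpMSC) cells. These subclasses were named over both groups together, and the level of their markers was not measured by group. The limit on the name of the class therefore holds for them too. In dpMSC-like cells Mmp3 went from 0.55 and 0.767 CPM in Control to 424 and 507 in Fracture. dpMSC-like cells were 66.4% and 72.5% of the class in Control and 35.8% and 35.4% in Fracture, and mpMSC-like cells 31.1% and 26.4% against 44.6% and 44.9%. In dpMSC-like cells 9 of 10 members rose, against 53.5% of genes called. Fosl1 is among the 9, at 0.22 and 0.877 CPM in Control and 16.5 and 18 in Fracture. It passed the filter on low counts through the Fracture preparations. Fos went from 379 and 333 CPM to 1086 and 1280, by 1.73, Fosb from 71.7 and 68.7 to 319 and 330, by 2.21, and Atf3 from 3.41 and 1.86 to 27.5 and 36.5, by 3.59. Only Jund did not rise there, at 396 and 587 CPM against 402 and 393. In mpMSC-like cells 7 of 9 members rose, against 27.5% of genes. Fos went from 559 and 327 CPM to 1024 and 1097, by 1.26, and Jund, unlike in the class as a whole, rose from 266 and 258 to 325 and 323, by 0.31 (SE 0.071, adjusted p 0.0325 by edgeR). Fosb and Egr1 were not called, with fold changes of 1.35 and 0.70 and adjusted p of 0.0747 and 0.0517 by edgeR. Fos and Fosb were thus steady between the Controls in dpMSC-like cells, with differences of 0.19 and 0.06, and the mpMSC-like cells carried the higher Fos and Fosb of Control 1, with Control differences of 0.78 and 1.41.

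Chondrocyte-like cells showed differences in both directions, which stayed under 2-fold for all members but Fosl1. Of 10 members 4 rose and 1 fell, where 36.8% of all genes were called, and 0 of 10 passed 2-fold between the Controls, against 10.4%. Fos was at 2027 and 1600 CPM in Control and 2281 and 2338 in Fracture, a fold change of 0.35 (SE 0.138, adjusted p 0.118 by edgeR) beside a Control difference of 0.34. Fosb was at 521 and 315 CPM against 586 and 547, with a Control difference of 0.73 that exceeds its fold change of 0.44. Fosl2 rose from 40.2 and 31.7 CPM to 51.9 and 50.8, by 0.51, and Fosl1 from 1.03 and 0.931, or 33 and 12 UMIs, to 2.26 and 2.66, by 1.30. Fos thus differed between groups by about as much as between the Controls, Fosb by less, and Fosl2 and Fosl1 by more.

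Junb rose in chondrocyte-like cells from 1190 and 1046 CPM to 1475 and 1382, by 0.35 (SE 0.094, adjusted p 0.0478 by edgeR). Jund fell from 739 and 757 CPM to 584 and 508, by 0.45 (SE 0.086, adjusted p 0.0218), with a Control difference of -0.04. Jun was at 1248 and 1053 CPM against 1053 and 1048, so its Fracture values matched Control 2 and lay below Control 1. Atf3 rose from 142 and 109 CPM to 195 and 197, by 0.65. Egr1 was at 809 and 673 CPM against 824 and 830, and Ier2 at 773 and 588 against 621 and 570, neither of them called. The rises of Fosl2, Junb and Atf3 were lost when counts were scaled by library size alone, at adjusted p of 0.103, 0.197 and 0.057 by edgeR. In cells thinned to 1000 UMIs Atf3 and Jund kept their calls, while Fosl1, at a fold change of 0.23 (adjusted p 0.819), Fosl2, at 0.13 (0.556), and Junb, at 0.42 (0.0926), did not. Junb was also lost with a mitochondrial limit of 10%, without doublets and without integration, at fold changes of 0.35, 0.35 and 0.32, and Fosl2 with the replicate number as a block, at 0.52 (adjusted p 0.0516), while Fos was called with DESeq2, at 0.36 (0.0172). Without either Fracture preparation 0 of 16524 and 0 of 16538 genes were called in this class, so those fits say nothing of the members, while 7 members were called higher and 1 lower without Control 1, and 4 higher and 3 lower without Control 2, where 6736 of 18562 and 8913 of 18694 genes were called. Control 1 held 8.61 times the granulocyte markers and 3.73 times the BMSC markers of Control 2, and erythroid and osteoblast markers in Fracture were 3.88 and 1.78 times those in Control. Their part in the levels of the members was not tested.

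The chondrocyte-like class joined a cluster led by Col10a1 and Ihh, genes of hypertrophic cartilage, and a cluster led by Serpina1 genes. The Col10a1 cluster made up 46.8% and 48.9% of the class in Control and 81.1% and 81.2% in Fracture, so the clusters were also fitted one by one. These shares rest on the integration of the libraries: without it the Col10a1 cluster held 127 and 40 Control cells and the Serpina1 cluster 1822 and 594, against 5605 and 5907, then 1259 and 1299, in Fracture, and the clusters made that way were not fitted one by one. In the Col10a1 cluster no member rose and 1 fell, against 28.2% of genes called. Fos was at 1707 and 1572 CPM in Control and 1826 and 1877 in Fracture, Atf3 at 144 and 128 against 137 and 141, and Jund fell from 665 and 778 to 511 and 448, by 0.59. In the Serpina1 cluster 6 of 10 rose, against 14.4% of genes. Fos went from 2377 and 1719 CPM to 4136 and 4271, by 1.04 (SE 0.181, adjusted p 0.035 by edgeR), Junb from 1488 and 1174 to 2734 and 2536, by 0.99, and Atf3 from 145 and 97.1 to 446 and 448, by 1.89. Jun rose by 0.67, Fosl2 by 1.28 and Egr1 by 0.75 there, while Jund was at 828 and 780 CPM against 847 and 727. The Control difference in this cluster was 0.51 at the median, with Control 1 higher for all 10 members. Whether the fold changes of the 2 clusters differ was not tested.

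**Figure D3:**
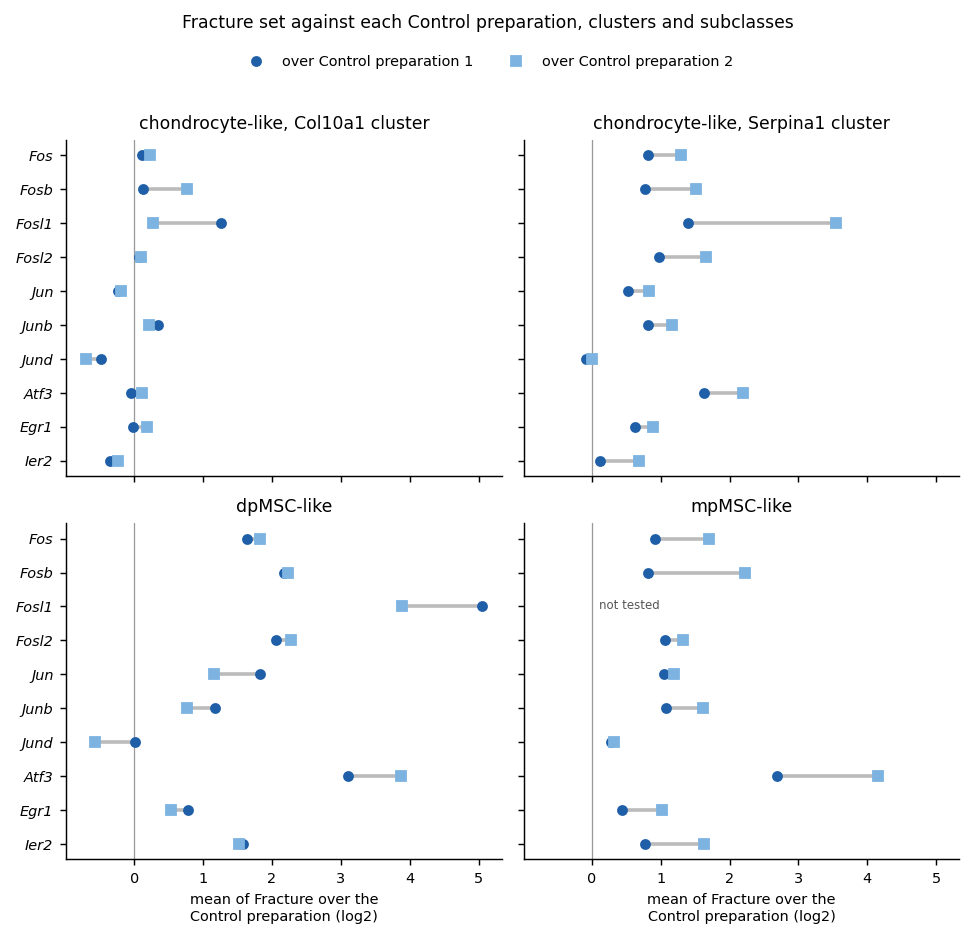
Mean of the Fracture preparations over Control 1 (circles) and over Control 2 (squares), log2, for the members in the chondrocyte-like clusters and the BMSC-like subclasses. A long grey bar means that the Control preparations differed. Most members of the Col10a1 cluster lie near 0, but Fosl1 is at 1.26 over Control 1, Fosb at 0.76 over Control 2 and Jund at -0.47 and -0.7. The Serpina1 cluster lies to its right, with Fos at 0.82 and 1.29. In dpMSC-like cells every member but Jund lies above 0.5 against both Controls.

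Endothelial-like cells, the lining of vessels, had the most members past 2-fold between the Control preparations among the 6 classes. Control 1 exceeded Control 2 past 2-fold for 4 of 10 members, where it did so for 505 of 14281 genes. In either direction 7.16% of genes passed 2-fold. In Fracture 2 of 10 members rose, against 36.2% of genes called. The count was 4 with DESeq2, where 4354 of 14281 genes were called, and 7 with each library as a sample, where 7096 of 12796 were. Fos was at 823 and 278 CPM in Control, a difference of 1.57, and at 1072 and 1190 in Fracture, a fold change of 1.04 (SE 0.524, adjusted p 0.188 by edgeR). Fosb was at 165 and 69.1 CPM against 251 and 246, and Egr1 at 226 and 103 against 323 and 361, with Control differences of 1.25 and 1.13. For these 3 genes Fracture lay above both Controls, by more than 2-fold only above Control 2.

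Atf3 and Junb were called in endothelial-like cells. Atf3 was at 35.7 and 14.7 CPM in Control and at 129 and 149 in Fracture, a fold change of 2.47 (SE 0.446, adjusted p 0.0196 by edgeR), and Junb rose from 587 and 378 to 947 and 954, by 0.98. Jun was at 821 and 588 CPM against 943 and 976, Jund at 621 and 426 against 529 and 463, and Ier2 at 406 and 280 against 499 and 486. Fosl1 was at 2.68 and 2.74 CPM against 2.98 and 2.93, and Fosl2 was at 109.8 and 70.4 against 92.2 and 94.6. Without Control 1, 8 members were called higher in Fracture, and without Control 2, 6 were called higher and 2 lower, where 7045 of 15115 and 7147 of 15178 genes were called. Without either Fracture preparation 0 of 14625 and 0 of 14656 genes were called, so those fits say nothing of the members.

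Markers of other cells also differed between preparations in the endothelial-like cells, and in both directions. The 8 chondrocyte markers summed to 2087 and 732 CPM in Control and 14986 and 15449 in Fracture, or 2.32% and 0.906%, then 15.5% and 15.98%, of their chondrocyte level, while Atf3 stood at 24.9% and 13.3%, then 66.6% and 76.2%, of its own. Control 1 held 7.74 times the granulocyte markers of Control 2, 5.09 times the erythroid markers, 3.14 times the basophil or mast cell markers and 2.85 times the chondrocyte markers. Granulocyte markers stood at 191.2 and 24.7 CPM in Control and lower in Fracture, at 18.3 and 18.5. Basophil or mast cell markers were at 494.6 and 157.7 CPM against 67.7 and 57.8, and BMSC markers at 2020 and 1434 against 703 and 758. Osteoblast markers were at 2193 and 2343 CPM against 4248 and 5133. Erythroid markers stood at 1097.4 and 215.5 CPM in Control and 3786.0 and 3892.2 in Fracture. The median cell held 4105 and 5331 UMIs in Control and 7516 and 8145 in Fracture. The part of these cells' RNA in the levels of the members was not tested.

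Fibroblast-like cells, the cells of tendon, synovium and the outer sheath of bone, had 0 of 10 members called by edgeR, against 15.7% of genes. By edgeR 2 members, Jund and Ier2, had an unadjusted p under 0.05, as did 4315 of 12448 genes, and DESeq2 called 1, Jund, and 2085 genes. Other edgeR settings called 1 member lower with library size alone, with no filter on low counts, in thinned cells and without integration. The genes called were 1898 of 12448, 3663 of 21085, 646 of 6729 and 2944 of 13400. With each library as a sample 2 were called lower, where 3719 of 10762 genes were called. Fos was at 1352 and 620 CPM in Control and at 911 and 918 in Fracture, so Fracture fell between the Controls, which differed by 1.12. Atf3 was at 119 and 31.3 CPM against 122 and 111, a Control difference of 1.91, and its Control 2 value came from libraries at 50.6 and 15.4. Fosl1 ran the other way, at 5.45 and 13.4 CPM against 12.5 and 13.03, and was the 1 pair of the 58 past 2-fold with Control 2 higher. These 3 genes were the ones past 2-fold between the Controls, against 13.2% of genes.

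None of the other members of the fibroblast-like cells passed 2-fold between the Controls, though the libraries of Control 2 differed past 2-fold for Jun, at 723.7 and 283.1 CPM, and Egr1, at 456.7 and 184.6. Jund was at 968 and 923 CPM in Control and 692 and 603 in Fracture, a fold change of -0.55 (SE 0.138, adjusted p 0.0601 by edgeR and 0.00359 by DESeq2). Ier2 was at 303 and 205 CPM against 179 and 165, Egr1 at 425 and 305 against 274 and 285, and Junb at 554 and 332 against 420.3 and 380.1. Jun was at 442 and 478 CPM against 521 and 534, Fosl2 at 60.6 and 51.4 against 65.9 and 66.5, and Fosb at 161 and 91.6 against 183 and 163. Without Control 1, 3 members were called higher and 1 lower, and without Control 2, 1 higher and 5 lower, where 3363 of 13340 and 4468 of 13469 genes were called, with Fos at 0.58 in the first case and -0.56 in the second. Control 1 held 7.46 times the granulocyte markers of Control 2 and 4.62 times the basophil or mast cell markers, and chondrocyte markers were at 3641 and 2240 CPM in Control and 11708 and 11022 in Fracture. Their part in the levels of the members was not tested.

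Smooth muscle-like cells of the vessel wall held high Fos, with 1 of 9 members called, which fell, against 24.7% of genes. Fos was at 2196 and 1165 CPM in Control and 1698 and 1507 in Fracture. Ier2 was at 291 and 102 CPM against 350 and 296, and Fosb at 351 and 171 against 405 and 313, the 2 members past 2-fold between the Controls, where 7.1% of genes were. Fosl2 fell from 119.5 and 82.9 CPM to 60.7 and 58.3, by 0.78 (SE 0.205, adjusted p 0.0446 by edgeR), a call that was lost with DESeq2, at 0.0615, without Control 1, at 0.0833, with the replicate number as a block, at 0.056, in cells thinned to 1000 UMIs, at 0.138, and without either Fracture preparation. Without Control 1, 5 of the 9 members were instead called higher, where 3268 of 11151 genes were called, and without Control 2, 0 were called higher and 2 lower, where 3640 of 11212 genes were called. With no filter on low counts 3 members, Junb, Ier2 and Fosl1, were called higher and 2, Fosl2 and Jund, lower, where 3992 of 19669 genes were called. All 9 tested members were higher in Control 1. Jun was at 994 and 776 CPM against 984.7 and 837, Junb at 784 and 497 against 988 and 849, and Jund at 839 and 601 against 521 and 446. Atf3 was at 198 and 105 CPM against 149.8 and 159, Egr1 at 533 and 297 against 567 and 454, and Fosl1 at 3 and 0 UMIs against 8 and 5. Control 1 held 3.69 times the basophil or mast cell markers of Control 2 and 2.89 times the osteoblast markers, and erythroid markers were at 69.8 and 164 CPM in Control and 4877 and 5074 in Fracture. Chondrocyte markers were at 2547 and 1430 CPM against 10819 and 8063, and the median share of mitochondrial UMIs was 6.82% and 5.37% against 2.84% and 2.91%. Their part in the levels of the members was not tested.

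**Figure D4:**
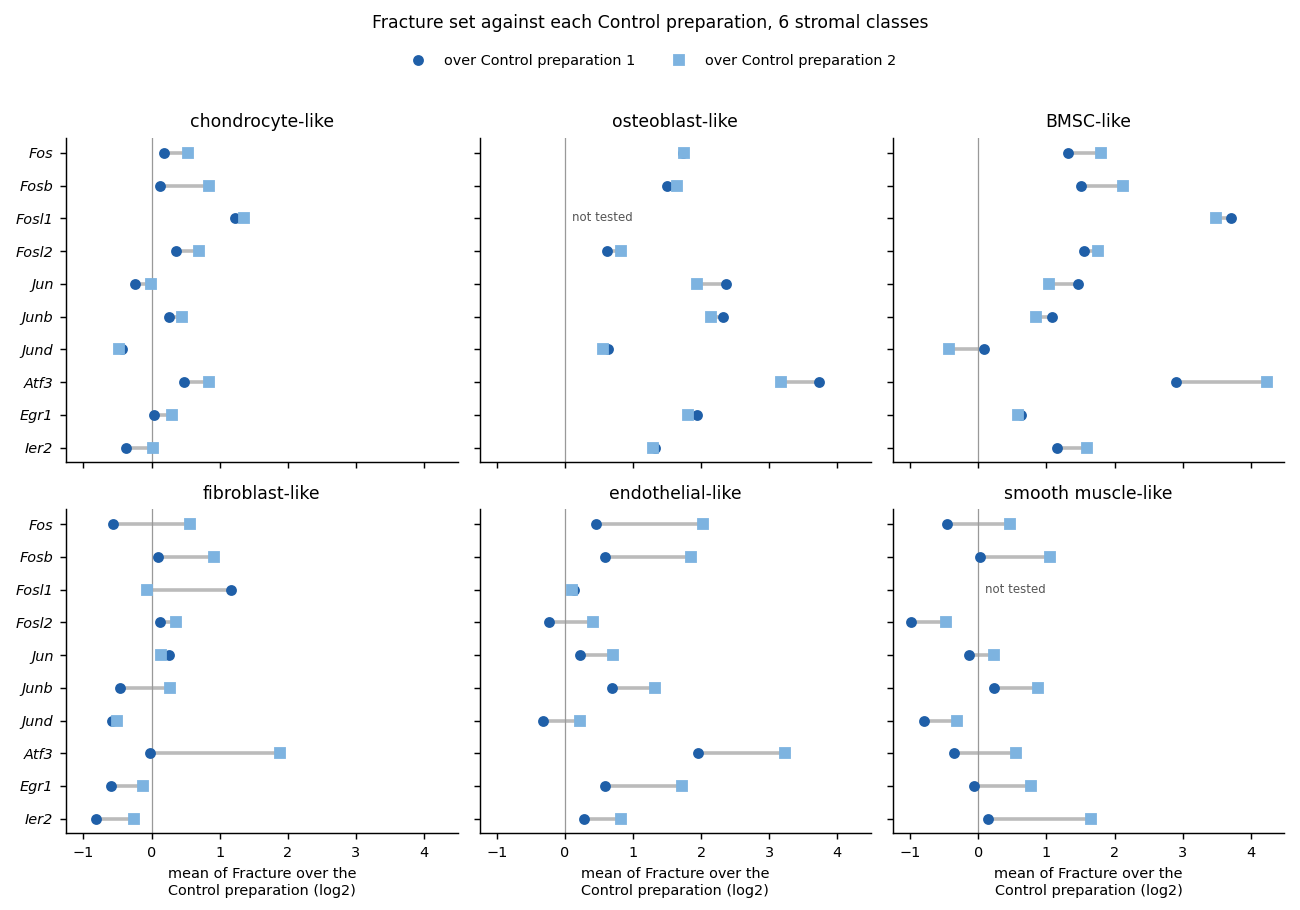
Mean of the Fracture preparations over Control 1 (circles) and over Control 2 (squares), log2, for the members in 6 stromal classes. Grey bars join the 2 values and are as long as the Control difference. In osteoblast-like cells all bars lie to the right of 0, the longest being that of Atf3 at 0.56, in endothelial-like cells Fos runs from 0.46 to 2.02, and in fibroblast-like and smooth muscle-like cells 8 bars cross 0.

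Blood cells left in the suspensions carried the Control difference too. In basophil or mast cell-like cells Control 1 was higher for all 10 members, with Fos at 2158 and 980 CPM. It was past 2-fold higher for 2 of them, against 582 of 12419 genes, where 7.86% of genes passed in either direction. In erythroid-like cells Control 1 was past 2-fold higher for 8 of 9 members, against 1925 of 10719 genes, where 22.7% passed in either direction. Fos was at 386 CPM in Control 1, 17.9 in Control 2 and 303 and 338 in Fracture, and Egr1 at 96.3, 7.8, 106 and 130. Fos and Egr1 of Control 1 thus lay near Fracture and those of Control 2 far below, while Atf3 was low in both Controls, at 2.46 and 1.11 CPM against 41.2 and 31.8. The erythroid-like cells of Control 1 also held osteoblast markers at 14326 CPM against 984 in Control 2 and basophil or mast cell markers at 2168 against 131, with a median of 2882 UMIs against 8583 and 12.9% against 6.96% mitochondrial UMIs. Their erythroid markers stood at 12089.5 and 30971.3 CPM in Control and 112449.5 and 134291.4 in Fracture, so the cells under this name differed between groups and between the Controls. The Fracture cells of the basophil or mast cell-like class, 87 and 84 in number, held more granulocyte markers, at 38106 and 47880 CPM against 9528 and 11970 in Control, than basophil or mast cell markers, at 9685 and 10253 against 33119 and 39118, so the groups under this name differ in makeup. By edgeR 0 members were called for Fracture against Control in either class, where all genes gave 0 calls as well. At an unadjusted p under 0.05 there were 4 members, Jun, Jund, Atf3 and Ier2, and 2764 genes in basophil or mast cell-like cells, and 1 member, Atf3, and 1077 genes in erythroid-like cells.

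Whether the Fracture difference itself differed between the classes was tested in 1 fit over the 6 stromal classes. Preparation was a block in that fit, so its p-values rest on the spread of the classes within preparations. All 10 members passed, where 62% of all genes did. The smallest adjusted p was 6.75e-08, for Fosl2, and the largest 0.00281, for Jund. The highest fold change lay in osteoblast-like cells for Fos, Jun, Junb, Jund and Egr1 and in BMSC-like cells for Fosb, Fosl1, Fosl2, Atf3 and Ier2. The lowest lay in fibroblast-like cells for Fos, Junb, Egr1 and Ier2, in smooth muscle-like cells for Fosl2, Jund and Atf3, in chondrocyte-like cells for Fosb and Jun, and in endothelial-like cells for Fosl1. For Fosl1 the highest and lowest are among the 4 classes in which it had a fold change. With the 6 classes summed in each preparation 8 of 10 members rose, all but Jund and Ier2, against 39.5% of genes. Fos was then at 1139 and 673 CPM in Control and 2045 and 2067 in Fracture, a sum in which the shares of the classes also differ.

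The members were also counted cell by cell. Each cell was thinned to 1000 UMIs, and the 10 members with a UMI were counted. BMSC-like cells held a mean of 1.08 and 1.14 members in Control and 2.1 and 2.06 in Fracture, and cells with none fell from 46.2% and 43.7% to 21.6% and 22.9%. Osteoblast-like cells held 1.33 and 1.22 against 3.07 and 2.97, endothelial-like cells 2.04 and 1.34 against 2.68 and 2.63, and chondrocyte-like cells 3.69 and 2.7 against 3.26 and 3.16. Erythroid-like cells held 1.24 and 0.32 against 1.01 and 0.97. Among the stromal classes the Fracture preparations lay furthest apart in smooth muscle-like cells, at 2.76 and 2.43, and Control 1 exceeded Control 2 in 5 of the 6, not in BMSC-like cells.

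Fos was found in 19.7% and 15.6% of thinned BMSC-like cells in Control and in 47.9% and 49.4% in Fracture. In osteoblast-like cells it was 38% and 30.1% against 67.7% and 68.1%, and in chondrocyte-like cells 71.1% and 49% against 63.3% and 62.4%. Erythroid-like cells, set beside them, held Fos in 21.3% and 1.85% against 12.1% and 13.7%. Whether this Fos is free RNA was not tested, and the erythroid markers of these cells differed between preparations, as given above. The BMSC-like share of Control 1 was thus below the erythroid-like share of that preparation and that of Control 2 above it, where the erythroid-like cells of Control 1 carry the osteoblast markers given above. Unthinned, the BMSC-like shares were 41.7% and 34.9% against 82.5% and 80.9%, at medians of 5290 to 8740 UMIs, and the erythroid-like shares 36.9% and 11% against 44.9% and 47.1%, at medians of 2882 to 8583 UMIs. Atf3 was found in 1.7% and 1.29% of thinned osteoblast-like cells in Control and in 15.4% of those of both Fracture preparations, against 0% and 0%, then 2.42% and 2.41%, of erythroid-like cells. The exact permutation test over 2 against 2 preparations, two-sided, cannot give a p below 0.33, so none of these shares could pass a threshold.

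**Figure D5:**
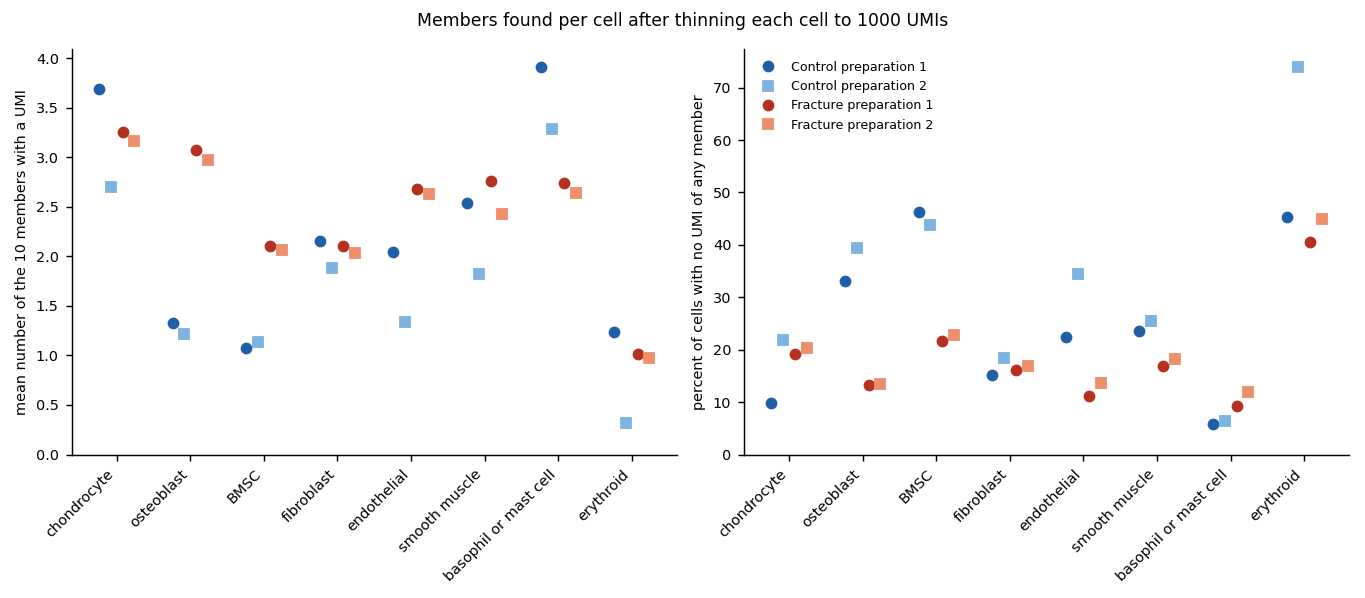
Left, mean number of the 10 members with a UMI per cell, and right, percent of cells with none, after thinning each cell to 1000 UMIs. Points are preparations, blue Control and red Fracture. Osteoblast-like cells go from 1.33 and 1.22 members in Control to 3.07 and 2.97 in Fracture, and erythroid-like cells of Control 2 stand apart at 0.32.

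Other genes of the response were read from lists named for this purpose. Of 42 other immediate early genes, 33 rose and 1 fell of 41 tested in osteoblast-like cells, with a median fold change of 1.19, beside 9 of 9 members. Socs3, a feedback inhibitor of cytokine signalling, went from 47.5 and 54.2 CPM to 433 and 397 there, by 3.03, and Bhlhe40, a repressor of the clock, from 13.6 and 15.6 to 79 and 72.7, by 2.38. In BMSC-like cells 22 rose and 6 fell of 41, with Nr4a2, an orphan nuclear receptor, up by 2.65 and the mRNA decay factor Zfp36l1 down by 1.18. In chondrocyte-like cells 20 rose and 4 fell of 42, led by the NF-kappa B inhibitor Nfkbia, from 104 and 89.1 CPM to 354 and 349, and in endothelial-like cells 17 rose and 5 fell of 41. There the flow-responsive factor Klf2 fell from 2055 and 1208 CPM to 745 and 754, by 1.12. In fibroblast-like cells 2 rose and 6 fell of 40, with Ctgf, a matrix protein, down from 2857 and 2700 CPM to 338 and 254, by 3.23, and in smooth muscle-like cells 8 rose and 4 fell of 41.

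The other early genes also stood higher in Control 1 than in Control 2, in 38 of 41 in endothelial-like cells, 36 of 42 in chondrocyte-like, 36 of 41 in smooth muscle-like and 32 of 40 in fibroblast-like cells. In osteoblast-like and BMSC-like cells it was 23 and 25 of 41. Past 2-fold with Control 1 higher were 6 of 42 in chondrocyte-like cells, against 867 of 17291 of all genes. It was 1 of 41 in osteoblast-like cells, against 286 of 13800, and 2 of 41 in BMSC-like cells, against 366 of 14731. In fibroblast-like cells it was 2 of 40, against 785 of 12448, and in endothelial-like cells 6 of 41, against 505 of 14281. It was 17 of 41 in smooth muscle-like cells, against 434 of 10601, and 28 of 38 in erythroid-like cells, against 1925 of 10719. Heat shock genes went both ways. Of 15 tested, 4 rose and 7 fell in chondrocyte-like cells, 3 and 5 in osteoblast-like, 8 and 2 in BMSC-like, 0 and 3 in fibroblast-like, 3 and 6 in endothelial-like and 2 and 6 in smooth muscle-like cells. Hspa1b, the inducible chaperone, fell from 72.3 and 99.8 CPM to 17.1 and 18.6 in chondrocyte-like cells, by 2.27, while the small chaperone Hspb1 rose there by 1.71.

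The zipper proteins with which AP-1 subunits pair or compete gave 8 rises and 2 falls of 19 in chondrocyte-like cells and 7 and 0 of 19 in osteoblast-like cells. They gave 3 and 7 of 19 in BMSC-like, 4 and 4 of 18 in fibroblast-like, 5 and 8 of 19 in endothelial-like and 0 and 0 of 17 in smooth muscle-like cells. Maf rose in chondrocyte-like cells from 24.1 and 22.1 CPM to 97.4 and 107, by 2.146, and by 1.376 within their Col10a1 cluster. Kinases and serum response factors upstream of AP-1 gave 9 rises and 1 fall of 23 in chondrocyte-like, 3 and 0 of 23 in osteoblast-like, 4 and 5 of 23 in BMSC-like, 1 and 2 of 22 in fibroblast-like, 3 and 7 of 23 in endothelial-like and 1 and 2 of 22 in smooth muscle-like cells. Map2k3, a kinase of the p38 branch, rose by 0.98 in osteoblast-like cells, 0.86 in smooth muscle-like and 0.80 in endothelial-like cells. Srf, the factor that binds serum response elements, rose in BMSC-like cells from 18.9 and 19.9 CPM to 36.2 and 35.3, by 0.88.

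Genes known as AP-1 targets gave more rises than falls in all 6 classes. Counts of this and the other lists stand beside 36.8% of all genes called in chondrocyte-like, 16.6% in osteoblast-like, 52.1% in BMSC-like, 15.7% in fibroblast-like, 36.2% in endothelial-like and 24.7% in smooth muscle-like cells. The 10 of 19 zipper protein genes called in BMSC-like cells are close to the share of all genes there. Of those tested, 14 rose and 2 fell of 19 in BMSC-like cells, 12 and 1 of 19 in chondrocyte-like, 12 and 1 of 18 in endothelial-like, 10 and 0 of 18 in osteoblast-like, 10 and 0 of 18 in smooth muscle-like and 7 and 1 of 19 in fibroblast-like cells. The protease gene Mmp3 went from 1.61 and 0.598 CPM to 186 and 203 in BMSC-like cells, and Mmp13 from 252 and 303 to 1211 and 1317 in chondrocyte-like cells, by 2.188. Within their Col10a1 cluster, whose share of the class was larger in Fracture, Mmp13 rose by 1.335. Timp1, an inhibitor of such proteases, rose by 2.30 in osteoblast-like, 3.67 in endothelial-like and 4.04 in smooth muscle-like cells. In smooth muscle-like cells the median fold change of the targets was 2.52, where that of the members was 0.04. Between -0.03 and 0.01 lay the median of all genes of each class, while that of the members was 0.35 in chondrocyte-like, 1.74 in osteoblast-like, 1.45 in BMSC-like, 0.04 in fibroblast-like and 0.75 in endothelial-like cells. Of the 19 genes, Mmp9 and Mmp13 are also markers of the mpMSC-like cells.

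The genes most like the members in pattern were found by the Pearson correlation of log2 CPM with the mean of the members' standardised log2 CPM over 24 points, 6 classes in 4 preparations, among 6464 genes. The points share preparations and classes, so the values are a description. The 10 highest were Gm26532 (0.931), Klhl21 (0.894), Emc6 (0.859), Peg3 (0.851), Pop5 (0.849), Tiparp (0.846), Arl2bp (0.843), Slc7a1 (0.841), Hapln1 (0.838) and Rabggtb (0.833). Hapln1 is also 1 of the 8 chondrocyte markers, which are highest where most members are. Among the members themselves Atf3 (0.926), Fos (0.92), Junb (0.917), Jun (0.896), Fosb (0.891) and Ier2 (0.89) followed the mean of the set closely, Egr1 less so (0.828), Jund (0.641) and Fosl2 (0.637) loosely, and Fosl1 hardly (0.112). Each member is part of the mean it is set against, which raises its value, so these values do not compare with those of the other genes.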

How the data were processed

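Single cell RNA sequencing was analysed in 8 droplet libraries, 2 libraries from each of 2 Control and 2 Fracture preparations. The values are UMI counts per gene and cell barcode as deposited by the authors, neither scaled nor pooled. The submitters' processing notes name bcl2fastq 2.19.1.403, STAR 2.7.3a, Subread, featureCounts 1.6.4, UMI-tools 1.0.0 and the mm10 genome, and the study's methods name STARsolo and an EmptyDrops selection of cells. Which of these made the tables is not stated, and a droplet selection or a different counter would change depth and low counts.

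Cells with 500 to 6000 genes and at most 25% mitochondrial UMIs, and genes in 3 or more barcodes, were kept, as in the study. Libraries were integrated with Seurat 5.3.0 (30 dimensions, 12 components, resolution 0.1) on 1906 of 2000 variable genes, after the members, other early genes, heat shock and cell cycle genes were taken out. Clusters were named from marker lists. Doublets called by scanpy 1.11.5 (718, 1.58%) were kept and left out in an alternative. UMIs were summed by class and preparation, the libraries of a preparation counting as 1 sample, and Fracture was compared with Control by edgeR 4.0.16 (TMM, quasi-likelihood test, Benjamini-Hochberg adjustment over all genes of a class, threshold 0.05) in R 4.3.3. The difference of Control 1 over Control 2 is a log2 ratio of normalised CPM with a prior count of 2 and has no test. DESeq2 1.42.0 was an alternative. Cells were thinned to 1000 UMIs for shares, with exact permutation tests.

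Tested on simulated data of these libraries, the fit recovered 9 to 30 of 100 genes changed 2-fold and 91 to 99 of 100 changed 4-fold, with 2.73% to 7.96% of its calls false, over 10601 to 17291 genes a class. Only 100 genes were changed by each size there, while 31.4% of all gene and class pairs were called in the data. Changes under 2-fold were called in the data, such as Junb at 0.35 (log2) in chondrocyte-like cells. The recovery thus does not give the power of these fits, and a missing call does not show that a member was unchanged. Named genes are all 10 members and, from each list and class, at most 2 called genes with the largest rise and 2 with the largest fall at a mean of 20 CPM or more. The members and lists were chosen with earlier results of these data known, so counts over them are descriptions.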

Additional observations from a re-analysis of the deposited data

Results flagged for a closer look

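For every member the difference of Fracture from Control differed between the 6 stromal classes, in a test of that difference itself by edgeR (class by group terms, adjusted over all genes, of which 62% passed). For the Fos family the adjusted p was 0.000478 for Fos, with fold changes from 1.74 in osteoblast-like to -0.11 in fibroblast-like cells, 0.000151 for Fosb, 2.88e-05 for Fosl1 and 6.75e-08 for Fosl2, which ran from 1.66 in BMSC-like to -0.78 in smooth muscle-like cells. For the Jun family it was 2.79e-06 for Jun, 1.67e-05 for Junb and 0.00281 for Jund, whose fold change ran from 0.60 in osteoblast-like to -0.58 in smooth muscle-like cells. It was 4.19e-06 for Atf3, 0.000103 for Egr1 and 2.87e-05 for Ier2. Without Fracture 1 or without Fracture 2 not every member passed, and no share over all genes stands beside those fits. The test has preparation as a block and takes the classes of a preparation as separate samples. Its p-values rest on the spread of the classes within preparations, and the bearing of these choices on them was not tested.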

How the results depend on the processing

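The number of pairs tested changed with the setting, so the counts over settings given here are not shares. In thinned BMSC-like cells, for example, 9 members and 10441 genes were tested, against 10 and 14731 unthinned. Over the 58 pairs 26 members were called, beside 26084 of 83152 pairs over all genes. The count was 24 with the replicate number as a block (replicate block; 18596 over all genes), 20 in cells thinned to 1000 UMIs (9030) and 35 with each library as a sample (37333), and it lay between these under the other settings that kept all preparations. It ran from 9 to 44 with 1 preparation left out: 44 without Control 1 (34855), 41 without Control 2 (38711), and 9, all in BMSC-like cells, without Fracture 1 (3235) or Fracture 2 (3965). A group left with 1 preparation is assumed to vary like the other group. The numbers did not pair the preparations, since deviations of same-numbered preparations correlated at 0.01 to 0.06. Members past the limit between the Controls numbered 20 with 1.5-fold in place of 2-fold. With no filter on low counts 1 member passed 2-fold between the Fracture preparations. No share over all genes stands beside either count. None of the following pairs passed the threshold in the fit of all preparations, which says nothing of calls in the fits where their sign turned. Fold changes (log2) turned their sign as follows, and the cause was not tested. In thinned cells Fosb (-0.104), Fosl2 (-0.021) and Jun (-0.065) did so in fibroblast-like and Jund (0.003) in endothelial-like cells. With library size alone it was Fosl1 (-0.003) and Fosl2 (-0.077) in endothelial-like and Atf3 (-0.001) in smooth muscle-like cells. In smooth muscle-like cells Jun was at -0.005 and Atf3 at -0.06 with a minimum of UMIs per cell, at -0.015 and -0.08 with a mitochondrial limit of 10%, and at -0.008 and -0.102 without doublets, with Jun at -0.025 without integration and Atf3 at -0.009 with each library as a sample. With 1 preparation left out, chondrocyte-like Jun ran from -0.25 to 0.004 and Ier2 from -0.378 to 0.027, and BMSC-like Jund from -0.409 to 0.078. Fibroblast-like Fos ran from -0.557 to 0.578, Fosl1 from -0.049 to 1.235, Junb from -0.462 to 0.286 and Atf3 from -0.024 to 1.912. Endothelial-like Fosl2 ran from -0.247 to 0.407 and Jund from -0.339 to 0.218. Smooth muscle-like Fos ran from -0.459 to 0.473, Jun from -0.13 to 0.245, Atf3 from -0.366 to 0.567 and Egr1 from -0.065 to 0.795. Fosl1 rests on few UMIs, 9 in BMSC-like cells of each Control preparation.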
